A study of Arabidopsis thaliana with 48 samples.

Results

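Nuclei and cytoplasm of heated wild-type Arabidopsis were compared, as 6 nuclear libraries against 6 cytoplasmic libraries of the accession Col-0, both taken after 3 h at 37 °C. These are all the libraries of that genotype and temperature, 12 of the 48 in the series, and they were chosen by the genotype, fraction and temperature in their labels, with no measured value used. The plants were 14-d-old Arabidopsis thaliana rosettes grown in long days, heated without recovery, and separated into fractions by differential centrifugation, per the labels' protocols. The other groups used here were nuclei and cytoplasm of the tho5ab double mutant at 37 °C and of Col-0 kept at 21 °C, with 6 libraries each. The tho5ab plants are mutant in both genes that encode THO subunit 5; THO is a complex loaded onto mRNA as it is transcribed that helps it leave the nucleus, and the series is about how tho5ab plants export mRNA when heated. The labels give the libraries replicate numbers but do not say whether they came from separate harvests, so p-values measure the spread between these libraries, which may be technical.

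An mRNA is made, capped, spliced and polyadenylated in the nucleus, passes the nuclear pore with export factors bound to it, and is then translated and finally degraded in the cytoplasm. Its share in the nucleus at a given moment depends on how fast it is made, processed, exported and broken down. Heat shock genes are transcribed strongly within minutes of heating, and their proteins hold and refold damaged proteins. Levels below are in CPM, counts normalized to library size, here to a total scaled with TMM, a factor that aligns the bulk of genes between libraries. Differences are log2 fold changes of nuclei over cytoplasm from edgeR's quasi-likelihood fit over all 48 libraries, negative where the nuclei were lower, and ± after them is an approximate standard error. Adjusted p-values are Benjamini-Hochberg values over all tested genes, with a threshold of 0.05. Both fractions are on relative scales, so a log2 difference of 0 is set by the scaling and does not mean equal numbers of molecules.

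Total counts ran from 5233564 to 16618929 per nuclear library and from 1375142 to 2174279 per cytoplasmic library. Between 21883 and 23360 genes had a count in a nuclear library, against 15294 to 16855 in a cytoplasmic library. The nuclear counts were spread over more genes: the top 20 genes held 5.27% to 7.43% of the counts in nuclei and 28.8% to 32.2% in cytoplasm, and 50% of the counts lay in 1480 to 1555 genes in nuclei and in 114 to 152 genes in cytoplasm. In 3 of the 12 libraries (nuclear replicates 2 and 3 and cytoplasmic replicate 6), genes lying within a host gene of the other strand had many more counts, relative to the host, than in the other 9, so results that rest on these libraries are given also without them. Genes called uncertain below share bases with another gene, of the opposite strand where no other is stated, or have a copy that is nearly identical, and their counts may be shared. All 4 markers of mesophyll, the main tissue of rosette leaves, were present, at a summed level of 862 to 1176 CPM in nuclei and 14674 to 21308 CPM in cytoplasm. The 7 root markers summed to 86.3 to 145 CPM in nuclei and 79.6 to 170 CPM in cytoplasm.

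Most transcripts were unevenly distributed. Of 17981 genes tested, 11072 (61.6%) differed between the fractions, with 5868 (32.6%) higher and 5204 (28.9%) lower in nuclei. The difference was at least 1 on the log2 scale for 4848 of the higher and 4191 of the lower genes, and at least 3 for 985 and 853 genes. The median over all tested genes was 0.24. In 8150 genes (45.3%) all 6 nuclear libraries lay above, or all below, the 6 cytoplasmic ones.

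The balance of directions depended on the scaling. With DESeq2's size factors in the same fit the median of all genes shifted by 0.50 and 8322 genes were higher against 3896 lower, so 68.1% of the called genes were higher in place of 53%. With unscaled library totals the median shifted by 1.35 and 12025 were higher against 2219 lower, or 84.4%. Values between about -1.35 and 0 therefore change sign with library totals, and genes and lists are best read against the median of 0.24. Both alternatives shift values upward. All 5868 genes higher in nuclei stayed so in both, which follows from that direction and is no check of those calls. Of the lower genes, 3896 and 2219 stayed lower.

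The cytoplasmic counts were dominated by a few transcripts. RR3 (AT2G41310, chromosome 2, 17221840 to 17224880, forward strand, RefSeq TAIR10.1), a type A response regulator gene of cytokinin signalling, took the most counts in either fraction. It had 3509, 4206 and 5369 CPM (lowest, median and highest) in nuclei and 111359, 127596 and 165923 CPM in cytoplasm, a log2 difference of -4.96 ± 0.23 (edgeR adjusted p = 4.6e-25). The gene overlaps another on the opposite strand, so these counts cannot be given to RR3 alone. The other 9 of the top 10 in cytoplasm were the heat shock genes HSP18.2, HSP17.4, AT1G53540, AT2G29500, AT1G07400, HSP70 and HSP90.1 and the antenna genes LHB1B2 and CAB1.

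In nuclei the top 10 also held HSP90.1, HSP70, HSP101, AT5G48570 (an FKBP-type peptidyl-prolyl isomerase gene), BAG6 and RR3, but beside them stood genes that were scarce in cytoplasm. AT5G25280, which encodes a serine-rich protein, had 2290, 2980 and 3413 CPM in nuclei against 470, 511 and 705 CPM in cytoplasm, and AT2G35750, an uncharacterized protein gene, had 1791, 2394 and 2956 CPM in nuclei against 117, 166 and 233 CPM in cytoplasm. Their log2 differences were 2.46 ± 0.18 (edgeR adjusted p = 8.2e-18) and 3.85 ± 0.28 (edgeR adjusted p = 1.1e-17), with no overlap between fractions, though AT2G35750 overlaps a gene on the same strand. EMB2770, which encodes a pre-mRNA splicing factor-like protein, was 1.16 ± 0.18 higher in nuclei. AT3G41762 came into the nuclear top 10 through 2 libraries alone: replicates 2 and 3, with high opposite-strand counts, had 10887 and 7887 CPM and the other 4 had 22.5 to 36.5 CPM. Without the 3 libraries its difference was 1.52 and not past the threshold (edgeR adjusted p = 0.49).

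Transcripts of small heat shock proteins, which bind unfolding proteins and keep them soluble, were lower in nuclei. All 18 tested members were lower in nuclei, against 28.9% of all genes, with a median of -4.54. The summed level of the 19 members counted, tested or not, was 3386 to 6414 CPM in nuclei and 169882 to 202004 CPM in cytoplasm. HSP18.2, a cytosolic class I member, had 412, 593 and 700 CPM in nuclei and 40763, 43274 and 47297 CPM in cytoplasm. The fractions lay far apart, at -6.24 ± 0.27 (edgeR adjusted p = 1.4e-26). HSP17.4 (-6.07 ± 0.40, uncertain), AT2G29500 (-6.22 ± 0.31) and AT1G53540 (-6.03 ± 0.36), all of the same HSP20 fold, were close behind. HSP17.6II, a cytosolic class II member, had 139, 204 and 291 CPM in nuclei and 5322, 6899 and 8434 CPM in cytoplasm (-5.08 ± 0.27).

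The members least shifted to the cytoplasm were AT4G21870 (-1.16 ± 0.26), AT1G54050 (-1.51 ± 0.26) and ATHSP22.0 (-2.94 ± 0.21), whose protein is directed to the endoplasmic reticulum. AT1G54050 had 275, 383 and 679 CPM in nuclei and 989, 1089 and 1608 CPM in cytoplasm, again without overlap. With library totals its value was -0.15 and not past the threshold (edgeR adjusted p = 0.59), and that of AT4G21870 turned to 0.20. With library totals 15 of the 18 were past the threshold as lower, with a median of -3.18.

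Among the ATP-driven chaperones of the HSP70, HSP90 and HSP100 families, 17 of 19 were lower in nuclei and 1 was higher. The shares over all genes were 28.9% and 32.6%, and the list median was -2.53. HSP70 had 1473, 2289 and 3240 CPM in nuclei and 30492, 33212 and 35884 CPM in cytoplasm (-3.86 ± 0.15, edgeR adjusted p = 4.7e-28). Hsp70b, a strongly heat-induced cytosolic HSP70, had 472, 665 and 1131 CPM in nuclei and 13025, 13857 and 19844 CPM in cytoplasm (-4.38 ± 0.27). The fractions did not overlap for either gene. HSP90.1, the heat-induced cytosolic HSP90, differed by -3.28 ± 0.17, and HSP101, the hexameric disaggregase needed for acquired thermotolerance, by -2.56 ± 0.19, with 1720, 2368 and 3790 CPM in nuclei and 13459, 14086 and 18651 CPM in cytoplasm. HSP101 is uncertain by an overlap.

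The 2 members of these families that were not lower were Hsp89.1 and CLPB4. The genes mtHsc70-1 (-1.87 ± 0.12, edgeR adjusted p = 8.3e-20) and MTHSC70-2 (-2.09 ± 0.13), for mitochondrial chaperones as those are, were lower. Hsp89.1, a mitochondrial HSP90, had 423, 562 and 701 CPM in nuclei and 391, 439 and 453 CPM in cytoplasm, which overlap, and was 0.37 ± 0.12 higher in nuclei (edgeR adjusted p = 0.0064; without replicate 6, 0.28 with adjusted p = 0.061). CLPB4, a mitochondrial HSP100, had 371, 407 and 509 CPM in nuclei and 303, 336 and 417 CPM in cytoplasm (0.28 ± 0.19, edgeR adjusted p = 0.20). It passed the threshold with DESeq2's size factors, at 0.78.

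Co-chaperones and other heat response genes were mostly cytoplasmic, with a median of -1.82. In nuclei 17 of 22 were lower and 1 higher, against 28.9% and 32.6% of all genes. MBF1C, a coactivator needed for thermotolerance, had 90.7, 122 and 181 CPM in nuclei and 3061, 3596 and 4311 CPM in cytoplasm (-4.80 ± 0.24, edgeR adjusted p = 5.6e-24, uncertain). The nuclear libraries lay far below the cytoplasmic ones. GolS1, which makes galactinol for protective sugars, differed by -2.32 ± 0.21 (uncertain), UBQ11, a polyubiquitin gene, by -2.21 ± 0.13 and BOB1, an HSP20-like co-chaperone gene, by -2.41 ± 0.17.

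Of the same list, DREB2A, BAG6 and DREB2B lay near or above 0. DREB2A, a transcription factor that activates heat and drought genes, had 196, 276 and 299 CPM in nuclei and 237, 279 and 402 CPM in cytoplasm, with overlapping ranges (-0.14 ± 0.19, edgeR adjusted p = 0.54, uncertain). BAG6, a cochaperone gene, had 1147, 1617 and 2225 CPM in nuclei and 1329, 1480 and 1720 CPM in cytoplasm (0.14 ± 0.21). DREB2B, at 0.58 ± 0.25 (uncertain), was the 1 member called higher (edgeR adjusted p = 0.045), a call lost without the 3 libraries with high opposite-strand counts (adjusted p = 0.17). DREB2A turned to 0.35 with DESeq2's size factors and to 1.21 with library totals.

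Of 19 heat shock transcription factor genes, whose trimers bind heat shock elements, 8 were higher in nuclei, 2 were lower and 9 did not pass the threshold. Their median was 0.65, and of all genes 32.6% were higher and 28.9% lower. Under DESeq2's size factors 11 were higher and 1 lower, and with library totals 17 were higher and 2 not past the threshold, with a median of 2.01. HSF1, a constitutive activator of the A1 class, had 20.7, 25.7 and 32.7 CPM in nuclei and 4.49, 8.02 and 15.71 CPM in cytoplasm (1.47 ± 0.32, edgeR adjusted p = 9e-05). HSFA1E, of the same class, was 1.43 ± 0.46 higher. HSFA2, the heat-induced amplifier of the response, had 270, 386 and 657 CPM in nuclei and 416, 549 and 946 CPM in cytoplasm, with overlap (-0.52 ± 0.24, edgeR adjusted p = 0.061). It was past the threshold in a fit of only the groups compared (-0.47, edgeR adjusted p = 0.037) and with a covariate for the libraries with high opposite-strand counts (-0.53, edgeR adjusted p = 0.021). A replicate block with only the groups compared also called HSFA2 lower (-0.47, edgeR adjusted p = 0.00068). The lower genes were HSFB4 (-1.58 ± 0.28) and HSFB2A (-0.69 ± 0.23), both of class B. HSFB4 missed the threshold with library totals (-0.23), and HSFB2A missed it with DESeq2's size factors (-0.19) and turned to 0.66 with library totals, as HSFA2 turned to 0.84.

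**Figure D1:**
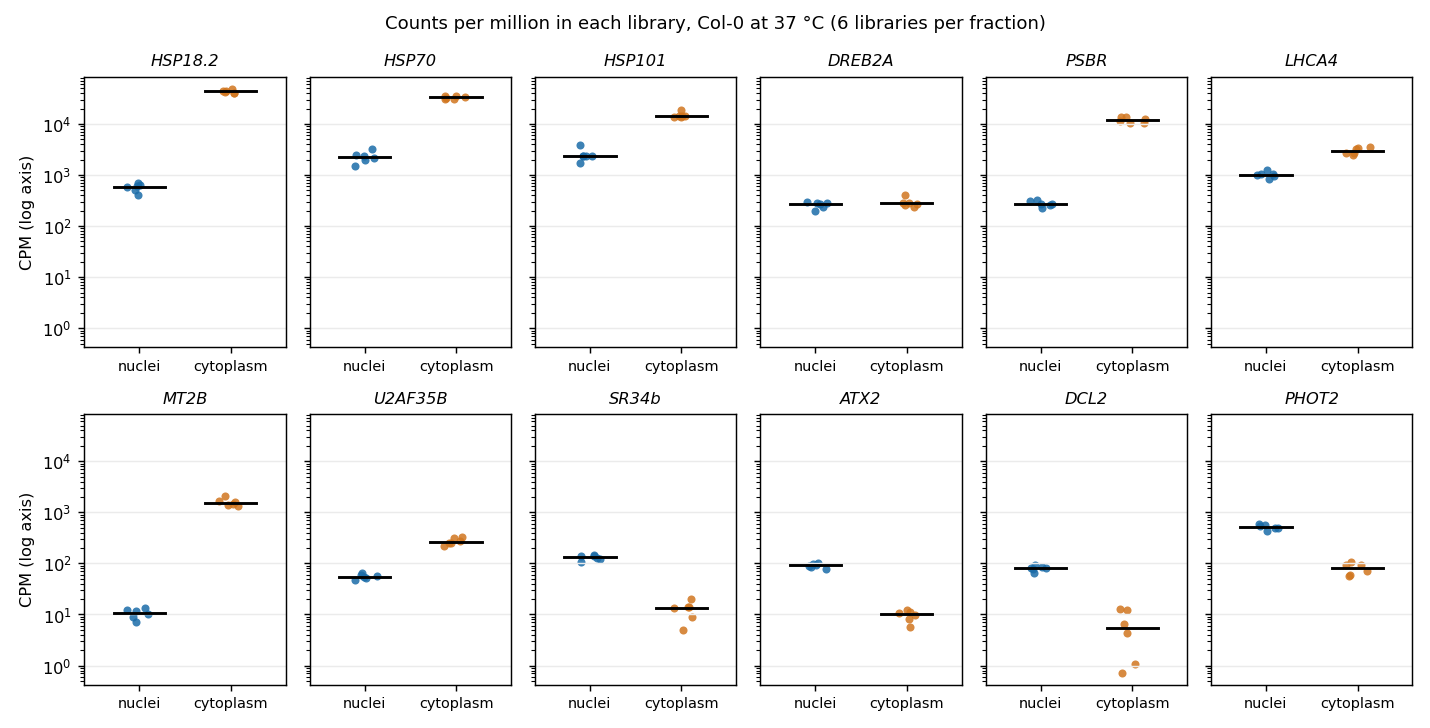
Level of 12 genes in each library of Col-0 at 37 °C, in CPM on a log axis, with nuclei left of cytoplasm; points are libraries (6 per fraction) and bars are medians. HSP18.2, HSP70, HSP101, PSBR, LHCA4, MT2B and U2AF35B were lower in nuclei without overlap, DREB2A overlapped, and SR34b, ATX2, DCL2 and PHOT2 were higher in nuclei without overlap.

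Photosynthesis genes of the nuclear genome also lay on the cytoplasmic side. All 39 genes of photosystems and light-harvesting antennae were lower in nuclei, each without overlap of the libraries. Of all genes, 28.9% were lower and 45.3% were without overlap in either direction. The list had a median of -4.46 and summed levels of 7499 to 8645 CPM in nuclei and 134223 to 178897 CPM in cytoplasm. PSBR, a subunit of photosystem II, had 222, 269 and 326 CPM in nuclei and 10418, 12035 and 13528 CPM in cytoplasm (-5.44 ± 0.14, edgeR adjusted p = 1.7e-35). PSAG of photosystem I was lowest at -5.82 ± 0.18, and CAB1 and LHB1B2, which encode antenna proteins of photosystem II, differed by -5.05 ± 0.22 and -4.51 ± 0.21. These 4 genes are uncertain by an overlap.

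The exceptions in size were LHCA4 and LHCB2.3. LHCA4, an antenna gene of photosystem I, had 836, 1013 and 1268 CPM in nuclei and 2479, 2928 and 3569 CPM in cytoplasm (-1.54 ± 0.15, edgeR adjusted p = 3.5e-13), and LHCB2.3 differed by -1.95 ± 0.23. Both overlap a gene on the opposite strand. The value of LHCA4 was -0.18 with library totals and not past the threshold (edgeR adjusted p = 0.17), while the other 38 genes of the list kept their call. LHCB3, another antenna gene, stood between at -3.15 ± 0.18 (uncertain).

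All 15 genes of Rubisco small subunits and the Calvin cycle were lower in nuclei too, against 28.9% of all genes. Their median was -3.14. RBCS3B, a Rubisco small subunit gene with a near-identical copy, had 122, 159 and 185 CPM in nuclei and 4800, 6562 and 8031 CPM in cytoplasm (-5.39 ± 0.19). RCA, the activase that frees Rubisco of inhibitors, differed by -3.77 ± 0.17 and PRK, which regenerates the acceptor of CO2, by -2.36 ± 0.15, both uncertain. GAPA-2, a subunit of the plastid glyceraldehyde-3-phosphate dehydrogenase, was least shifted (-1.52 ± 0.16, or -0.17 and not past the threshold with library totals). Photosynthesis genes are made mainly in mesophyll. The 4 mesophyll markers were also lower in nuclei, but they include members of these lists and are no separate check. By contrast, 4 of 5 tested guard cell markers were higher. The 6 guard cell markers counted, tested or not, summed to 142 to 210 CPM in nuclei and 47.1 to 76.0 CPM in cytoplasm. Of 6 epidermis markers 3 were higher and 1 lower, and of 5 phloem markers 1 was higher and 2 lower. The shares over all genes were 32.6% higher and 28.9% lower. A difference between fractions in the cells they come from and a difference in where a transcript lies within cells cannot be told apart in these bulk samples, nor can fewer cells of a type and less RNA per cell.

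Other short and abundant mRNAs of general metabolism lay on the same side. Of 96 genes for proteins of cytosolic ribosomes, 92 were lower in nuclei and 2 higher, against 28.9% and 32.6% of all genes. Their median was -2.58. AT1G01100, a gene for an acidic protein of the large subunit stalk, had 21.72, 24.0 and 35.4 CPM in nuclei and 563, 702 and 890 CPM in cytoplasm (-4.74 ± 0.17, edgeR adjusted p = 3.3e-30). The 2 higher genes were scarce: AT5G47940, at 18.4 to 33.0 CPM in nuclei and 7.86 to 19.2 CPM in cytoplasm (0.93 ± 0.25), and AT4G01790, at 0.501 to 12.6 CPM in nuclei and 0 to 2.92 CPM in cytoplasm (2.88 ± 1.11, uncertain). AT4G01790 was not past the threshold without the 3 libraries with high opposite-strand counts (0.45, edgeR adjusted p = 0.77).

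Translation factors and poly(A)-binding proteins gave 21 of 23 lower and 2 not past the threshold, against 28.9% of all genes lower. Their median was -2.30. FBR12, a gene for the elongation factor eIF5A, differed by -4.51 ± 0.16 (uncertain) and TCTP, the translationally controlled tumor protein gene, by -3.97 ± 0.23. EIF4G, the long scaffold of the cap-binding complex, had 203, 225 and 291 CPM in nuclei and 179, 197 and 218 CPM in cytoplasm (0.23 ± 0.13, edgeR adjusted p = 0.13), and was past the threshold at 0.72 with DESeq2's size factors.

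Metallothioneins, small cysteine-rich proteins that bind metals, gave the lowest values of the lists. MT2B had 7.16, 10.8 and 13.2 CPM in nuclei and 1335, 1512 and 2058 CPM in cytoplasm (-7.22 ± 0.26, edgeR adjusted p = 5.1e-30). MT3 followed at -6.76 ± 0.19 (uncertain), TRX3, a cytosolic thioredoxin gene, at -5.63 ± 0.22 (uncertain) and TPX1, a peroxiredoxin gene, at -4.77 ± 0.20. In this list of 16, 14 genes were lower, against 28.9% of all genes, with a median of -3.98. CSD2, a plastid superoxide dismutase gene that is a target of a microRNA, was the 1 gene higher, with 19.3, 20.8 and 22.1 CPM in nuclei and 3.27, 8.24 and 14.6 CPM in cytoplasm (1.36 ± 0.32).

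Core histone and HMGB genes were lower in nuclei for 38 of 45, against 28.9% of all genes, although their proteins act there. The list median was -2.10. HTB4, an H2B gene, had 19.7, 21.8 and 29.1 CPM in nuclei and 425, 550 and 638 CPM in cytoplasm (-4.58 ± 0.16, edgeR adjusted p = 2.3e-30). HTR11, an H3 gene with at most 2.73 CPM in any library, was the 1 called higher (2.25 ± 0.80), and was not past the threshold without replicate 3 (edgeR adjusted p = 0.074) or without replicate 5 (edgeR adjusted p = 0.057). Of 24 genes for aquaporins and proton pumps, 15 were lower, with the water channels PIP1B at -2.47 ± 0.14 and PIP1;5 at -2.63 ± 0.20, and 2 were higher, the plasma membrane pump HA3 (0.86 ± 0.23) and VHA-A1 of the vacuolar pump (0.94 ± 0.27). Over all genes 28.9% were lower and 32.6% higher. With library totals the counts of aquaporin and pump genes were 5 lower and 9 higher.

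Most genes of the lists of receptors and of the transcription machinery were higher in nuclei, against 32.6% of all genes. Receptor-like kinases, membrane proteins that sense hormones, peptides and microbes, gave 23 of 28 higher and 5 not past the threshold, with a median of 1.15, or 1.13 with PEPR2, which had no count in cytoplasm, at its lower bound. EFR, the receptor for a bacterial elongation factor, had 4.44, 5.11 and 5.30 CPM in nuclei and 0, 0 and 1.46 CPM in cytoplasm (3.45 ± 0.81, uncertain). SERK4, a co-receptor gene, was 2.46 ± 0.53 higher. FER, the receptor for RALF peptides, was among the 5 not called, with overlapping levels of 122, 150 and 161 CPM in nuclei and 91.8, 114 and 167 CPM in cytoplasm (0.28 ± 0.14, edgeR adjusted p = 0.069), and it passed the threshold in several alternatives.

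Among NLR genes, which encode intracellular immune receptors, 19 of 23 were higher, against 32.6% of all genes, and 4 did not pass the threshold. Their median was 1.48. RLM3 had 150, 188 and 221 CPM in nuclei and 18.0, 21.9 and 40.9 CPM in cytoplasm (2.85 ± 0.23, edgeR adjusted p = 1.1e-15). TAO1, another gene of the list, was 2.57 ± 0.37 higher (uncertain). In both genes the 6 nuclear libraries lay above the 6 cytoplasmic ones.

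RNA polymerase, chromatin and transcription genes gave 26 of 41 higher and 5 lower, against 32.6% and 28.9% of all genes. Their median was 1.11. ATX2, a histone methyltransferase of the trithorax type, had 78.1, 91.9 and 104 CPM in nuclei and 5.58, 10.2 and 12.3 CPM in cytoplasm (3.26 ± 0.25, edgeR adjusted p = 2.5e-16). VRN2, a Polycomb protein that keeps FLC silent after cold, was 2.48 ± 0.30 higher and NRPC1, the largest subunit of RNA polymerase III, 2.34 ± 0.26 higher (uncertain). Among the 5 lower genes was SPT16, a subunit of the histone chaperone FACT, with 89.5, 96.2 and 103 CPM in nuclei and 159, 173 and 225 CPM in cytoplasm (-0.94 ± 0.13). Its value turned to 0.41 with library totals.

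Genes of small RNA and RNA decay machinery were higher in 18 of 31 and lower in 3, against 32.6% and 28.9% of all genes. Their median was 0.77, and with DESeq2's size factors 26 were higher and 1 lower. DCL2, which dices viral double-stranded RNA, had 64.6, 82.0 and 92.2 CPM in nuclei and 0.731, 5.43 and 13 CPM in cytoplasm (3.71 ± 0.34, edgeR adjusted p = 8.7e-14), and DCL1, which makes microRNAs, was 2.17 ± 0.19 higher. Both overlap a gene on the same strand, DCL1 one on the opposite strand as well. DCP1, an activator of mRNA decapping, was 1 of the 3 lower genes, with 31.8, 35.5 and 44.9 CPM in nuclei and 89.8, 117 and 146 CPM in cytoplasm (-1.65 ± 0.16, or -0.29 and not past the threshold with library totals).

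In the circadian clock, an oscillator of transcription factors that repress each other, 10 of 19 genes were higher and 5 lower. Over all genes the shares were 32.6% and 28.9%, and the list median was 0.40. PRR7, a repressor of the day, had 423, 484 and 525 CPM in nuclei and 80.3, 100.4 and 125 CPM in cytoplasm (2.26 ± 0.17, edgeR adjusted p = 6.1e-17), TOC1, a repressor of the evening, was 1.88 ± 0.19 higher and CCA1, the morning repressor, 2.62 ± 0.36 higher. Without the 3 libraries with high opposite-strand counts 10 were higher and 2 lower, and with DESeq2's size factors 13 were higher and 1 lower. Photoreceptors and light signalling gave 12 of 21 higher and 2 lower, with a median of 0.75 (19 and 2 with DESeq2's size factors). PHOT2, a blue light receptor for chloroplast movement, had 438, 516 and 583 CPM in nuclei and 57.7, 82.1 and 107 CPM in cytoplasm (2.68 ± 0.15, uncertain). HY5, a transcription factor that promotes greening, went the other way with 10.8, 15 and 20.02 CPM in nuclei and 29.7, 65.7 and 70.7 CPM in cytoplasm (-1.94 ± 0.24), as did its homolog HYH. PHYB, the red light receptor, overlapped between fractions (-0.04 ± 0.17, edgeR adjusted p = 0.86).

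Genes for splicing factors split. Of 28 genes for SR proteins and other splicing factors, 20 were lower and 6 higher in nuclei, against 28.9% and 32.6% of all genes. Their median of -0.73 turned to 0.63 with library totals, where 4 were lower and 18 higher. SR34b, an SR protein gene, had 109, 132 and 146 CPM in nuclei and 4.87, 13.6 and 20.4 CPM in cytoplasm (3.36 ± 0.30, edgeR adjusted p = 4e-14), ATU2AF65A, the large subunit that binds the polypyrimidine tract, was 2.41 ± 0.19 higher and SR34 1.26 ± 0.17 higher. U2AF35B, the small subunit of the same factor, had 46.8, 55.2 and 65 CPM in nuclei and 217, 262 and 332 CPM in cytoplasm (-2.30 ± 0.17, uncertain), and SCL30, another SR protein gene, was at -2.19 ± 0.15. All 5 of these genes were without overlap between fractions. U2AF35B and SCL30 stayed lower with either other scaling. Both scalings shift values upward, so the kept direction of SR34b, ATU2AF65A and SR34 is no check.

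Of the THO and mRNA export factors, 9 of 22 were higher and 5 lower, against 32.6% and 28.9% of all genes, with a median of 0.06. The counts were scaling-dependent: by DESeq2's size factors 12 were higher and 4 lower (median 0.56), and with library totals 15 were higher and 1 lower (median 1.41). AT5G42920, a THO subunit 5 gene, had 175, 183 and 205 CPM in nuclei and 3.37, 27.1 and 49.0 CPM in cytoplasm (2.87 ± 0.40, edgeR adjusted p = 2.2e-08). NUA, which lies at the inner basket of the nuclear pore, was 2.58 ± 0.17 higher (uncertain). AT5G02530, an RNA-binding protein gene of the ALY export adaptor family, had 20.5, 24.1 and 28.6 CPM in nuclei and 74.1, 139 and 162 CPM in cytoplasm (-2.41 ± 0.17, uncertain), and AT1G66260, of the same family, was at -1.47 ± 0.15 (uncertain). With library totals AT1G66260 was at -0.12 and not past the threshold.

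The lists of the endoplasmic reticulum and cell wall had medians near 0. Of 22 chaperone and unfolded protein response genes of the endoplasmic reticulum, 3 were higher, 2 lower and 17 not past the threshold. Over all genes 32.6% were higher and 28.9% lower, and the list median was 0.21. IRE1-1, the sensor that splices bZIP60 mRNA, had 17.7, 20.3 and 23 CPM in nuclei and 2.19, 2.53 and 4.36 CPM in cytoplasm (2.83 ± 0.33), and CRT1b, a calreticulin gene, was 0.49 ± 0.15 higher. With DESeq2's size factors 13 were higher and 9 did not pass the threshold, and with library totals all 22 were higher. Cell wall genes gave 8 of 36 higher and 10 lower, against 32.6% and 28.9% of all genes. Their median of -0.07 turned to 0.12 without the 3 libraries with high opposite-strand counts. By DESeq2's size factors 14 were higher and 6 lower (median 0.44), and with library totals 25 were higher and 1 lower (median 1.29). TSD2, a pectin methyltransferase gene, was 2.02 ± 0.19 higher and EXPA10, an expansin gene, 2.69 ± 0.51 higher, while AGP9, an arabinogalactan protein gene, was at -1.84 ± 0.18.

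Early stress transcription factors and jasmonate repressors gave 4 of 29 higher and 5 lower, against 32.6% and 28.9% of all genes. Their median was 0.15. With DESeq2's size factors 11 were higher and 3 lower (median 0.65), and with library totals 22 were higher and 7 not past the threshold (median 1.5). WRKY40, a repressor of defence genes, had 4.98, 15 and 22 CPM in nuclei and 0, 0 and 0.731 CPM in cytoplasm, where 1 library held any count (6.41 ± 0.91, edgeR adjusted p = 2.4e-08). WRKY33, an activator of defence against fungi, was 1.51 ± 0.27 higher. Both are uncertain. GBF6, a bZIP transcription factor gene, had 5.68, 8.28 and 9.03 CPM in nuclei and 16.8, 25.7 and 38.7 CPM in cytoplasm (-1.75 ± 0.31, or -0.39 and not past the threshold with library totals).

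**Figure D2:**
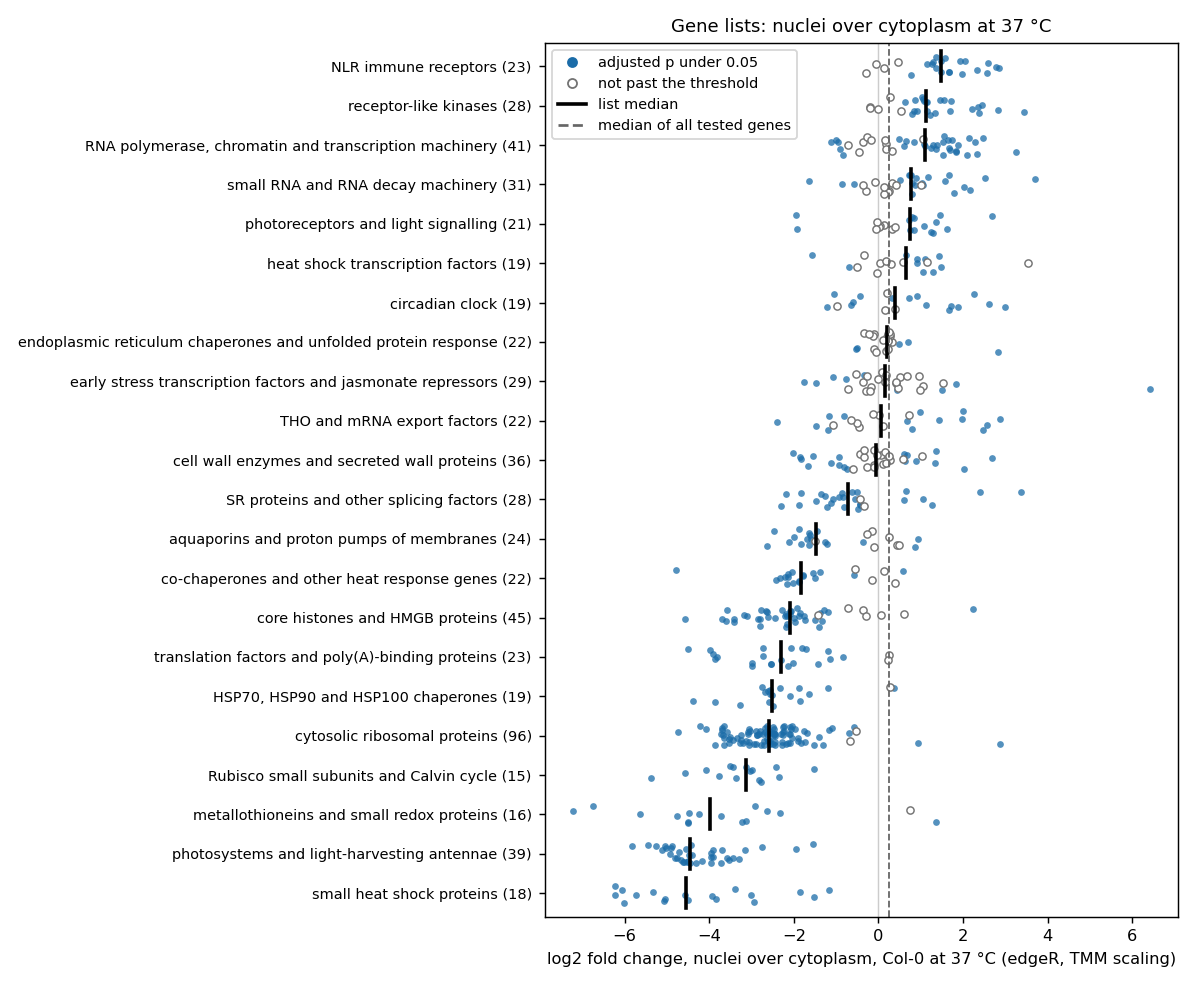
Log2 fold change of nuclei over cytoplasm in Col-0 at 37 °C for each tested member of 22 gene lists, with the number of members in brackets; points are genes, filled where past the threshold, bars are list medians and the dashed line is the median of all tested genes, 0.24. Small heat shock protein, photosystem and metallothionein genes lie lowest (medians -4.54, -4.46 and -3.98) and NLR and receptor-like kinase genes highest (1.48 and 1.13, with PEPR2 at its bound).

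The genes with the lowest and highest differences are named next, among those past the threshold with a symbol, a mean log2 CPM of at least 3 and no overlap between the fractions, 3200 genes in all. Below every gene of the lists except MT2B and MT3 stood MLP328, of the major latex protein family, with 7.96, 12.2 and 20.8 CPM in nuclei and 846, 1055 and 1211 CPM in cytoplasm (-6.32 ± 0.26). DRT112, a plastocyanin gene, had 136, 146 and 164 CPM in nuclei and 8040, 11354 and 11941 CPM in cytoplasm (-6.19 ± 0.17, edgeR adjusted p = 4.6e-34). PSRP6, a gene for a plastid ribosome protein (-6.03 ± 0.23), MAPR2, a membrane steroid binding protein gene (-5.91 ± 0.21), the cold-induced genes KIN2 (-5.89 ± 0.22) and KIN1 (-5.62 ± 0.33) and ROC1, a cyclophilin gene (-5.45 ± 0.15), were among the 15 lowest as well. The rest of the 15 were metallothionein, thioredoxin, photosystem, ferredoxin and small heat shock protein genes.

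At the other end stood genes with few counts in cytoplasm. PLDGAMMA3, a phospholipase D gene, had 63.0, 73.0 and 79.6 CPM in nuclei and 1.63, 2.19 and 3.72 CPM in cytoplasm (4.87 ± 0.40, edgeR adjusted p = 1.8e-15). BGLU8, a beta glucosidase gene, had 95, 115 and 137 CPM in nuclei and 3.27, 4.52 and 14.8 CPM in cytoplasm (4.13 ± 0.30). FRO8, a mitochondrial ferric reductase gene, was 3.73 ± 0.34 higher, RAPTOR2, a partner of the TOR kinase, 3.84 ± 0.30 higher (uncertain), SCAMP4, of the secretory pathway, 4.95 ± 0.46 higher (uncertain) and RLP13, a receptor-like protein gene, 4.26 ± 0.44 higher. SETH5, of the transducin family, had 244, 266 and 304 CPM in nuclei and 10.9, 23.2 and 42.8 CPM in cytoplasm (3.44 ± 0.26). Absence of overlap was a condition for naming these 7 genes, so it is no support for them.

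A further 378 genes had at least 100 counts over the nuclear libraries and 0 in all 6 cytoplasmic libraries, and 278 of them were in the fit. PME5, a pectin methylesterase gene, had 11, 12.4 and 16.3 CPM in nuclei, at least 27.9-fold higher than the floor of 3 counts over the cytoplasmic group. UPS2, a transporter of ureides and uracil (uncertain, overlapping on the same strand), and PUP10, of the purine permease family (uncertain), were at least 23.7-fold and at least 23.9-fold higher. CO, the photoperiod regulator of flowering, and RLP48, a receptor-like protein gene, met the same condition through nuclear replicates 2 and 3 alone, at 55.0 and 46.1 CPM and at 19.4 and 25.4 CPM, against at most 1.002 CPM and 0.154 CPM in the other 4 nuclear libraries. Neither was past the threshold without the 3 libraries with high opposite-strand counts. Such floors cover counting error only.

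Long transcripts were relatively nuclear and short ones relatively cytoplasmic. By 4 classes of like size, cut by the length of the longest annotated transcript, the median difference was -1.05 up to 1312 bp, -0.09 up to 1788 bp, 0.50 up to 2381 bp and 1.08 above. Of the shortest class 11.1% were higher and 52.4% lower in nuclei, and of the longest class 60.9% were higher and 9.43% lower, against 32.6% and 28.9% of all genes. The shortest class held 11.4% to 13.9% of the counts in nuclei and 35.9% to 38.2% in cytoplasm, and the longest held 45% to 47.7% in nuclei and 18% to 19.3% in cytoplasm.

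As a value per library, the mean log2 CPM of the longest class minus that of the shortest was 2.05 ± 0.09 in nuclei and 0.08 ± 0.12 in cytoplasm (SD, n = 6 each), with ranges of 1.94 to 2.15 and -0.12 to 0.21 that are far apart. Over all tested genes, Spearman's rho with the log2 difference was 0.44 for transcript length, 0.42 for coding length, 0.24 for the number of exons, 0.10 for untranslated length and -0.05 for GC content, and -0.36 for the mean log2 CPM. These are descriptions over genes, which are not independent, and length, exons and level are related to each other. The 500 genes with the lowest values had a median transcript of 967 bp and 3 exons and a mean log2 CPM of 5.63. The 500 with the highest values had a median transcript of 1873 bp and 4 exons and a mean log2 CPM of -0.48, a level at which counts are few. Over all tested genes the medians were 1788 bp and 5 exons.

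Within each length class, genes with 10 or more exons lay above those with 2 to 4 exons, but so did genes with 1 exon. Genes with 10 or more exons had a median of 0.98, those with 5 to 9 exons 0.25, and both those with 2 to 4 exons and those with 1 exon -0.16. Within the shortest class the medians were 0.38 for 76 genes with 10 or more exons and -1.29 for 2238 genes with 2 to 4 exons, and within the longest class 1.28 and 0.82. From the shortest to the longest class, the medians were -1.07, -0.17, 0.44 and 1.01 with 1 exon. With 2 to 4 exons they were -1.29, -0.21, 0.34 and 0.82. Genes with 10 or more exons were also longer than those with 2 to 4 within a class. Their median transcripts were 1230 against 980 bp in the shortest class and 3258 against 2864 bp in the longest. Per library, the mean log2 CPM of genes with 10 or more exons minus that of genes with 2 to 4 exons was 1.62 ± 0.11 in nuclei and 0.47 ± 0.11 in cytoplasm (SD, n = 6 each). For intronless genes minus genes with introns it was -1.12 ± 0.14 in nuclei and -0.83 ± 0.05 in cytoplasm. The 2 nuclear libraries with high opposite-strand counts were nearest to the cytoplasm here, at -0.94 and -0.93 against -1.23 to -1.19 in the other 4, and without the 3 such libraries the difference between fractions was -0.36 in place of -0.29. It was -0.75 over genes of at least 10 CPM in a fraction and -0.19 with a prior count of 0.5.

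Predicted hydrophobic segments, which as a class include signal peptides and membrane spans, also went with the nuclear side. A protein was counted when a window of 19 residues had a mean hydropathy of at least 1.6 and a window of 11 residues in its first 40 had one of at least 2. The 2907 genes with both had a median of 0.82, with 42% higher and 15.3% lower in nuclei, and the 11049 genes with neither had a median of -0.03. Within the length classes, from shortest to longest, the medians were -0.55, 0.57, 1.06 and 1.53 with the segments and -1.24, -0.29, 0.23 and 0.88 without. Whether membranes sedimented with the nuclei was not tested.

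**Figure D3:**
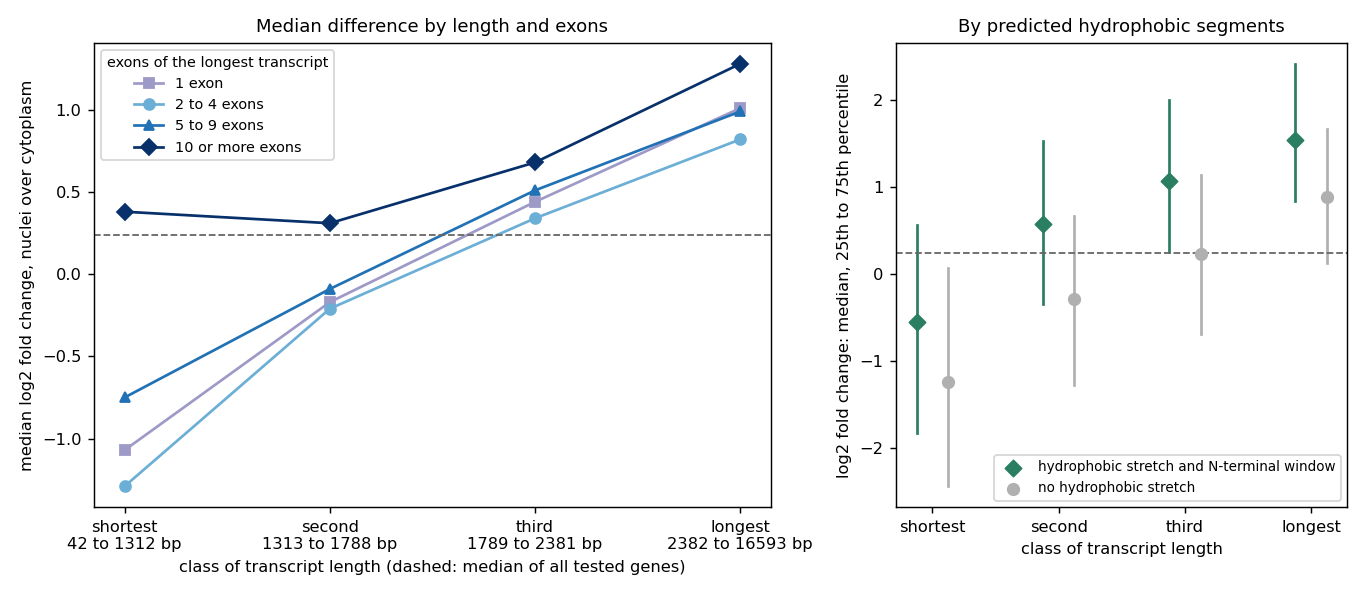
Left, median log2 fold change of nuclei over cytoplasm by class of transcript length and number of exons; right, median (symbol) and 25th to 75th percentile (line) by class of length for genes with and without predicted hydrophobic segments, Col-0 at 37 °C. The medians climb with length in each exon class but for the 2 shorter classes of genes with 10 or more exons (0.38 and 0.31), and genes with hydrophobic segments lie above those without in each class.

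The distribution at 37 °C was then set beside that of Col-0 at 21 °C, to show where heated plants differed. Across the 17981 genes the log2 differences at the 2 temperatures had a Pearson correlation of 0.774 and a Spearman correlation of 0.822, from different libraries of the same design. Of the genes higher in nuclei at 37 °C, 4802 were also higher and 83 were lower at 21 °C, where 7000 (38.9%) were higher in all, and of the genes lower at 37 °C, 4187 were also lower and 86 were higher at 21 °C, where 5040 (28%) were lower. The interaction, the difference at 37 °C minus that at 21 °C, was past the threshold for 2878 genes (16%), with 1325 (7.37%) more nuclear and 1553 (8.64%) more cytoplasmic at 37 °C. Its median was -0.12. Fitted with the 4 groups alone, the split was 2253 against 1200.

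Small heat shock protein genes were more cytoplasmic at 37 °C than at 21 °C for 11 of 18, against 8.64% of all genes, and 7 did not pass the threshold. At 21 °C they were scarce: HSP18.2 had 0.481, 0.553 and 1.29 CPM in nuclei and 0, 6.64 and 12.3 CPM in cytoplasm, a difference of -3.17, and its interaction was -3.07 ± 0.43 (edgeR adjusted p = 4.6e-07). HSP17.6A had 97.8, 139 and 210 CPM in nuclei and 3961, 4774 and 5930 CPM in cytoplasm at 37 °C, but at 21 °C at most 0.572 CPM in nuclei and 1.8 CPM in cytoplasm, with 2 counts in all (-4.57 ± 0.82). HSP17.6II had no count in cytoplasm at 21 °C and at most 0.679 CPM in nuclei, so no fold is given.

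Of the 19 chaperone genes of the HSP70, HSP90 and HSP100 families, 8 were more nuclear and 4 more cytoplasmic at 37 °C. The shares over all genes were 7.37% and 8.64%, and the median interaction of the list was 0.57. The heat-induced genes named next were picked after their values were seen. At 21 °C Hsp70b, HSP101 and DREB2A were less scarce in nuclei than HSP18.2, but in cytoplasm Hsp70b was about as scarce as HSP18.2. Hsp70b had 4.62, 4.92 and 5.17 CPM in nuclei and 0, 5.91 and 13.6 CPM in cytoplasm at 21 °C, which overlap, and its interaction was -4.29 ± 0.43 (edgeR adjusted p = 7.7e-11). HSP101, with 14.5 to 27.7 CPM in nuclei and 12.4 to 41.7 CPM in cytoplasm at 21 °C, gave -2.46 ± 0.28 and MBF1C gave -2.53 ± 0.31. DREB2A was 1.8 higher in nuclei at 21 °C, with 48.0, 59.1 and 64.3 CPM there and 8.07, 16.5 and 25.9 CPM in cytoplasm, and gave -1.94 ± 0.31 (edgeR adjusted p = 5.4e-06). Hsp89.1 moved the opposite way, at 39.1 to 48.8 CPM in nuclei and 80.3 to 100.4 CPM in cytoplasm at 21 °C (interaction 1.4 ± 0.17). HSA32, a heat-induced gene for long-term thermotolerance (uncertain, overlapping on the same strand), and FRL2, of the FRIGIDA family, had no count in cytoplasm at 21 °C, with 0.554 to 1.91 CPM and 11.2 to 18.3 CPM in nuclei.

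Photosystem and antenna genes moved toward the nuclear side, with 27 of 39 past the threshold upward, against 7.37% of all genes, 12 not past it, and a median of -4.46 at 37 °C and -5.35 at 21 °C. LHCA4 had 195, 229 and 265 CPM in nuclei and 4385, 6111 and 7072 CPM in cytoplasm at 21 °C, so its nuclear level was higher and its cytoplasmic level lower at 37 °C, and the interaction was 3.14 ± 0.21 (edgeR adjusted p = 2.5e-16). LHCB2.3 had 17 to 25 CPM in nuclei at 37 °C and 14.4 to 33.1 CPM at 21 °C, which overlap, while its cytoplasmic level was 60.1 to 128 CPM at 37 °C and 449 to 1368 CPM at 21 °C (3.34 ± 0.32). CAB1 differed likewise in cytoplasm, at 13658 to 19885 CPM at 37 °C and 41747 to 108469 CPM at 21 °C (1.71 ± 0.27). Core histone and HMGB genes gave 13 of 45 upward and 1 downward, genes of cytosolic ribosomes 20 of 96 upward and 5 downward, and translation factors 8 of 23 upward and 15 not past the threshold. Photoreceptor and light signalling genes gave 1 of 21 upward and 7 downward, against 7.37% and 8.64% of all genes.

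Outside the lists, the interaction was highest for AGP3, an arabinogalactan protein gene (4.42 ± 0.49), PUM9, an RNA-binding Pumilio protein gene (4.31 ± 1.47, edgeR adjusted p = 0.036, uncertain), UDG4, a UDP-glucose dehydrogenase gene (3.95 ± 0.42), and HCF164, a thylakoid thioredoxin gene (3.41 ± 0.35, uncertain). The value of PUM9 turned to -1.07 without all 16 libraries of the series with high opposite-strand counts (edgeR adjusted p = 0.92), and missed the threshold without replicate 2, 3, 4 or 5. AGP3 had 6.70, 15.5 and 25.9 CPM in nuclei and 1.86, 6.42 and 19.1 CPM in cytoplasm at 37 °C, and 2.54, 4.44 and 5.43 CPM in nuclei and 22.2, 41.5 and 78.6 CPM in cytoplasm at 21 °C. UDG4 had 4.63 to 21.2 CPM in nuclei and 11.4 to 25.1 CPM in cytoplasm at 37 °C, and 5.37 to 8.46 CPM in nuclei and 111 to 237 CPM in cytoplasm at 21 °C. In both genes the cytoplasmic levels at 37 °C lay below those at 21 °C without overlap. AT5G42920 became more nuclear, with 30.8, 34.4 and 37.7 CPM in nuclei and 12.3, 18.24 and 23.4 CPM in cytoplasm at 21 °C (interaction 1.99 ± 0.58, edgeR adjusted p = 0.013), a call lost without those 16 libraries (1.66, edgeR adjusted p = 0.14). AT1G66260 became more cytoplasmic, with a difference of 0.48 at 21 °C (-1.95 ± 0.20).

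**Figure D4:**
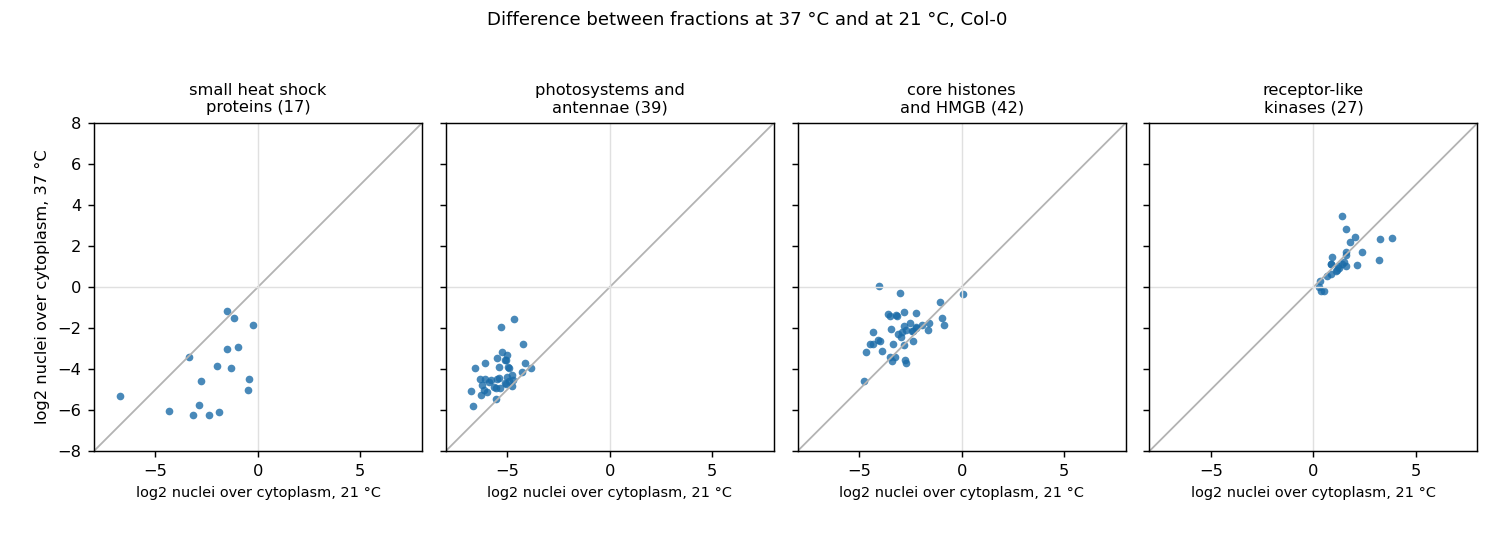
Log2 fold change of nuclei over cytoplasm at 37 °C (vertical) against that at 21 °C (horizontal) in Col-0, for 4 gene lists with the number of genes shown; points are genes, genes with no count in a fraction are left out and the diagonal marks equal values. Small heat shock protein genes lie mostly below the diagonal, photosystem genes mostly above it, and receptor-like kinase genes near it.

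The same comparison in tho5ab at 37 °C gave a similar overall order. Its labels were checked with the mutated genes: AT1G45233 had 3.63 to 5.94 CPM in Col-0 nuclei and 2.24 to 12 CPM in Col-0 cytoplasm, against at most 0.554 CPM in tho5ab nuclei and no count in tho5ab cytoplasm. AT5G42920 had 175 to 205 CPM in Col-0 nuclei, against 15.6, 23.58 and 118 CPM in tho5ab nuclei. The highest tho5ab value belongs to replicate 7, and whether that library is what its label says was not tested. The cytoplasmic levels of AT5G42920 at 37 °C overlapped, at 3.37 to 49.0 CPM in Col-0 and 1.69 to 35.5 CPM in tho5ab, and at 21 °C Col-0 nuclei had 30.8 to 37.7 CPM against 76.3 to 118 CPM in tho5ab nuclei, so the label check rests on AT1G45233. Pearson's correlation of the log2 differences across genes was 0.749 and Spearman's 0.803. Of the genes higher in Col-0 nuclei, 4497 were higher and 21 lower in tho5ab nuclei, where 6659 (37%) were higher in all, and of those lower in Col-0 nuclei, 4104 were lower and 209 higher in tho5ab, where 4834 (26.9%) were lower.

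The genotype interaction, Col-0 minus tho5ab, was past the threshold for 2641 genes, with 865 (4.81%) more nuclear and 1776 (9.88%) more cytoplasmic in Col-0. With DESeq2's size factors these counts were 1457 and 1431, so the share more nuclear in Col-0 was 50.5% in place of 32.8%. Without tho5ab replicate 7 they were 861 and 1781. Since this interaction and that with temperature share the Col-0 libraries at 37 °C, they are not independent of each other.

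Heat shock genes went both ways, and those named next were among the ones more cytoplasmic in Col-0. HSP70 had 1473, 2289 and 3240 CPM in Col-0 nuclei, against 18276, 22526 and 24801 CPM in tho5ab nuclei, and its cytoplasmic level was 30492 to 35884 CPM in Col-0 and 27701 to 53068 CPM in tho5ab (interaction -2.83 ± 0.20, edgeR adjusted p = 6e-16). Hsp70b gave -3.01 ± 0.34, with 472 to 1131 CPM in Col-0 nuclei against 5155 to 7859 CPM in tho5ab nuclei, and DREB2A gave -2.21 ± 0.28. Of the 18 small heat shock protein genes 6 were more cytoplasmic and 1 more nuclear in Col-0, against 9.88% and 4.81% of all genes. Of 19 chaperone genes of the HSP70, HSP90 and HSP100 families 6 were more cytoplasmic and 5 more nuclear, with a median interaction of 0.18. Among 22 co-chaperone and other heat response genes 7 were more cytoplasmic and 3 more nuclear (median -0.33).

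The lowest interactions also held MBD10, emb1796 and EMB3120. MBD10, a methyl-CpG-binding domain protein gene, had 88.9, 124 and 179 CPM in Col-0 nuclei against 639, 952 and 1129 CPM in tho5ab nuclei, with 764 to 923 CPM in Col-0 cytoplasm and 320 to 656 CPM in tho5ab cytoplasm (-3.67 ± 0.29, edgeR adjusted p = 5e-14). emb1796, a pentatricopeptide repeat protein gene, had 54.5 to 71.6 CPM in Col-0 nuclei against 260 to 384 CPM in tho5ab nuclei (-3.49 ± 0.28, uncertain) and EMB3120 had 14.2 to 20.6 CPM in Col-0 nuclei against 67.9 to 111 CPM in tho5ab nuclei (-4.03 ± 0.38). In Col-0 these 3 genes were lower in nuclei, at -2.68, -0.90 and -1.68 in the order named, and in tho5ab they were higher, at 0.99, 2.60 and 2.35. With library totals the Col-0 value of emb1796 turned to 0.46 and that of EMB3120 was not past the threshold. SEF and LDL2 were also among the 5 lowest, with 1 and 3 counts in all in tho5ab cytoplasm, so no fold is given.

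On the other side were AT1G31600, an RNA-binding protein gene (2.47 ± 0.46, edgeR adjusted p = 8.3e-05), PLDGAMMA3 (2.44 ± 0.57), MAN7, a glycosyl hydrolase gene (2.22 ± 0.59, uncertain), SCAMP4 (2.2 ± 0.73) and CCA1 (2.1 ± 0.51). The call of SCAMP4 was lost without replicate 2, 4 or 5. AT1G31600 had 41.2, 51.8 and 56.1 CPM in Col-0 nuclei against 9.85, 11.7 and 12.3 CPM in tho5ab nuclei, with 2.24 to 6.50 CPM and 1.24 to 13.5 CPM in the cytoplasm of Col-0 and tho5ab. Over all genes 4.81% were more nuclear and 9.88% more cytoplasmic in Col-0. Photosystem and antenna genes were more nuclear in Col-0 for 16 of 39 and more cytoplasmic for 2. Genes of Rubisco and the Calvin cycle were more nuclear for 9 of 15, with 6 not past the threshold. Core histone and HMGB genes were more cytoplasmic in Col-0 for 14 of 45 and more nuclear for 1, and genes of the endoplasmic reticulum list were more cytoplasmic in Col-0 for 12 of 22, with 10 not past the threshold.

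The transcript classes were set side by side in the 3 sets of libraries. The longest minus the shortest class gave a difference between fractions of 1.98 in Col-0 at 37 °C, 2.06 in Col-0 at 21 °C and 1.86 in tho5ab at 37 °C. For 10 or more exons minus 2 to 4 exons these values were 1.15, 1.03 and 0.61, and for intronless genes minus genes with introns -0.29, -0.39 and 0.36. For the last contrast, the intronless value was -1.23 to -0.93 in nuclei of Col-0 at 37 °C and -0.64 to -0.29 in those of tho5ab, which do not overlap, and -0.87 to -0.73 and -1.06 to -0.74 in the cytoplasm of Col-0 and tho5ab, which do. No test was run on these class values.

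**Figure D5:**
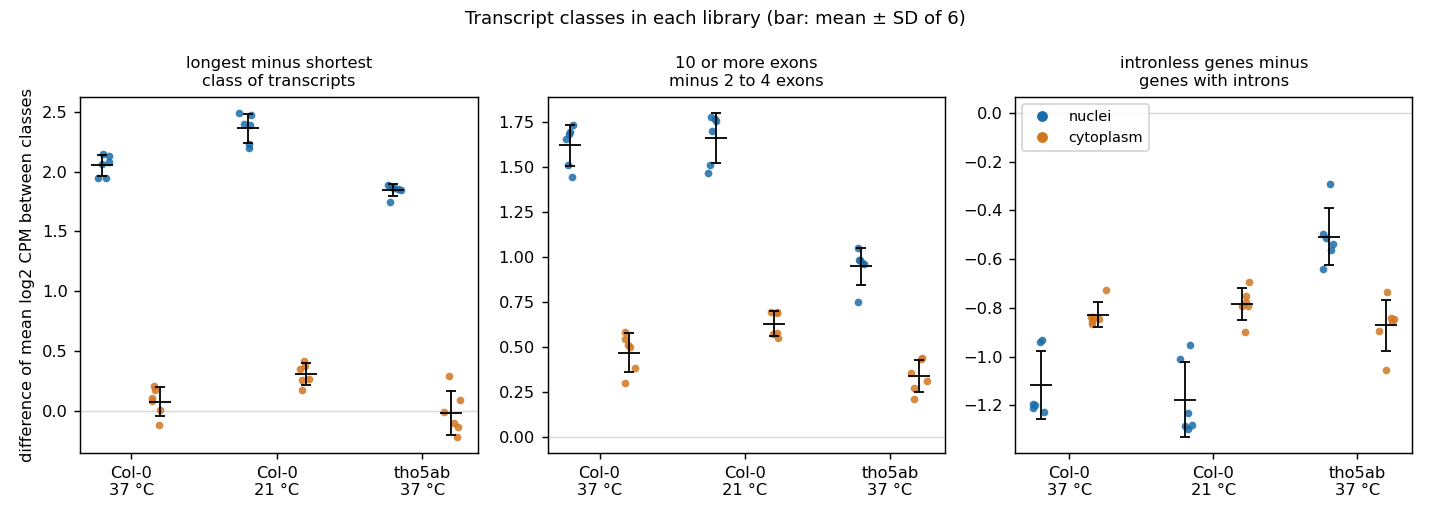
Difference of the mean log2 CPM between transcript classes in each library, for Col-0 at 37 °C, Col-0 at 21 °C and tho5ab at 37 °C, nuclei left of cytoplasm; points are libraries and bars are means ± SD of 6. In the order of the sets, the length contrast is 2.05, 2.36 and 1.85 in nuclei and 0.08, 0.31 and -0.01 in cytoplasm. The intronless contrast is -1.12 in nuclei of Col-0 and -0.51 in those of tho5ab at 37 °C.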

How the data were processed

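RNA of nuclear and cytoplasmic fractions was extracted with a plant RNA kit, ERCC controls were added, and libraries were made with a NuGEN Universal Plus kit with removal of Arabidopsis ribosomal RNA, per the labels' protocols. The authors deposited 1 table of raw counts per gene, not normalized, for 27420 genes (27419 protein coding) and 48 libraries. The submitters' processing notes name STAR 2.7.8a, Picard, UMI-tools, featureCounts and the build TAIR10; the strand setting of the counting is not given in the sources used here. A count not assigned by strand can hold reads of an overlapping gene, and 6148 of the tested genes were marked as uncertain: they overlap another gene, or a blastn 2.17.0+ search found a copy of at least 95% identity over at least 25% of the transcript.

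All identifiers matched the RefSeq annotation of TAIR10.1, which gave symbols, products, exons, lengths and protein segments. The fit used edgeR 4.0.16 (R 4.3.3; TMM scaling, filterByExpr, quasi-likelihood F test, 1 mean per group), which tested 17981 genes and left out 9439 with low counts. Interactions were contrasts of the same fit, and standard errors were derived from the log2 fold change and its F value. Class values per library are means of log2 CPM with a prior count of 2. Precision follows the totals: cytoplasmic libraries held fewer counts, so low genes are less certain there, and at a count of 0 a floor of 3 counts over the group was used.

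Named genes were, among 3200 called genes with a symbol, a mean log2 CPM of at least 3 and no overlap of libraries, the 15 highest and the 15 lowest; the 10 with the highest mean CPM in each fraction; up to 4 members per direction of each list with further members called in a count of 5 or fewer; the 5 highest and 5 lowest of each interaction; and 5 genes with at least 100 counts in nuclei and 0 in cytoplasm. AT5G42920, HSP18.2, HSP101, MBF1C, DREB2A, LHCA4, LHCB2.3, CAB1, Hsp89.1 and AT1G66260 are also given in the interaction with temperature, HSP70, Hsp70b and DREB2A in that with genotype, and mtHsc70-1 and MTHSC70-2 between fractions, chosen after their values were seen. The rule gave 241 genes, and the text gives only a part of them, picked with their values known. The comparison and the gene lists were chosen with earlier results of these data known. No 2 libraries of a group agreed within sampling noise: the lowest chi-square per degree of freedom was 4.77. Libraries were grouped by their labels alone. Alternatives were DESeq2 1.42.0 (size factors and Wald test), unscaled library totals, a fit of the compared groups alone, no filter on low counts, thinned counts, a replicate block, each replicate left out in turn and, added after seeing the data, libraries with high opposite-strand counts or tho5ab replicate 7 left out.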

Additional observations from a re-analysis of the deposited data

Results flagged for a closer look

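Of 254 groups of 6 libraries examined for the genes and class values given, 27 had a library whose gap to the others exceeded the critical value of Dixon's test at the 95% level, where chance gives about 1 in 20. Replicate 4 stood apart for heat shock genes in both fractions: Hsp70b had 1131 CPM in nuclei (others 472 to 699) and 19844 CPM in cytoplasm (others 13025 to 14137), HSP101 had 3790 CPM in nuclei (others 1720 to 2388) and 18651 CPM in cytoplasm (others 13459 to 14580), and DREB2A had 402 CPM in cytoplasm (others 237 to 287). AT1G01100 was also highest in nuclei of replicate 4, at 35.4 CPM.

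In replicate 6, Hsp89.1 (391 CPM), TCTP (1390 CPM) and DRT112 (8040 CPM) were low in cytoplasm, AT3G41762 (282 CPM), PUM9 (28.1 CPM) and HTR11 (2.24 CPM) were high there, and HSFB4 (7.03 CPM) and LHCB3 (252 CPM) were high in nuclei. The cytoplasmic library of replicate 6 is the one with high opposite-strand counts, and its value for intronless minus intron genes was -0.725, against -0.868 to -0.836 in the others. In replicate 5, GAPA-2 (160 CPM), EXPA10 (5.85 CPM), AT4G01790 (2.92 CPM) and WRKY40 (0.731 CPM) were high in cytoplasm. For AT4G01790, WRKY40 and HTR11 all other cytoplasmic libraries had 0 CPM. Any count then sets a library apart, so the rate of 1 in 20 does not apply to these genes. Elsewhere, AT5G25280 (705 CPM) and RLP13 (14.2 CPM) were high in cytoplasm of replicate 2, BGLU8 was high (14.8 CPM) and HYH low (3.49 CPM) in cytoplasm of replicate 3, GAPA-2 was low in nuclei of replicate 3 (28.8 CPM), CAB1 was low (439 CPM) and SCAMP4 high (77.3 CPM) in nuclei of replicate 1, and RAPTOR2 was high in cytoplasm of replicate 1 (11.2 CPM).

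The difference between fractions in Col-0 depended on temperature for 2878 genes, by a test of the interaction. Among the genes given, the value at 37 °C minus that at 21 °C was negative for HSP17.6A (-4.57), Hsp70b (-4.29), HSP18.2 (-3.07), MBF1C (-2.53), HSP101 (-2.46), AT1G66260 (-1.95) and DREB2A (-1.94). It was positive for AGP3 (4.42), PUM9 (4.31), UDG4 (3.95), HCF164 (3.41), LHCB2.3 (3.34), LHCA4 (3.14), AT5G42920 (1.99), CAB1 (1.71) and Hsp89.1 (1.4).

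It depended on genotype at 37 °C for 2641 genes. Col-0 minus tho5ab was negative for EMB3120 (-4.03), MBD10 (-3.67), emb1796 (-3.49), Hsp70b (-3.01), HSP70 (-2.83) and DREB2A (-2.21), and positive for AT1G31600 (2.47), PLDGAMMA3 (2.44), MAN7 (2.22), SCAMP4 (2.2) and CCA1 (2.1).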

How the results depend on the processing

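Counts of genes between fractions stayed within 1.5 times under the alternatives, except that library totals gave 12025 higher and 2219 lower genes, 702 of them called in the opposite direction, and DESeq2's Wald test gave 9029 higher. For the temperature interaction, a fit of only the groups compared gave 2253 upward, and the Wald test 4641 genes, 2211 upward and 2430 downward. For the genotype interaction, DESeq2's size factors gave 1457 upward, and the Wald test 4556 genes, 2509 upward. Leaving out each replicate gave 10426 to 10683 genes between fractions, 2446 to 2578 for temperature and 2298 to 2517 for genotype. Nuclear libraries thinned to the cytoplasmic totals gave 10614 genes, and low genes in the shallower cytoplasmic libraries remain the least certain.

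Numbers were taken to pair the fractions only where every pair correlated above 0.1, which they did not. Same-number correlations of deviations were -0.01 to 0.18, with 3 of 6 over 0.1 (replicates 1, 4 and 5), and other-number ones -0.17 to 0.20. The pairs of replicates 2, 3 and 6 (0.04, 0.01 and -0.01) each hold a library with high opposite-strand counts. The value of 0.20 joins such libraries too, nuclear replicate 3 and cytoplasmic replicate 6. The rule therefore cannot decide whether same numbers are fractions of the same material, and the main fit leaves any pairing out. With the replicate block 10373 genes were called, 5751 higher and 4622 lower.

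Medians of 3 lists changed sign: splicing factors to 0.63 with library totals, THO and export factors to -0.03 without replicate 1 (-0.03 to 0.15 over the replicates left out), and cell wall genes to 0.44 with size factors and the Wald test, 1.29 with library totals, 0.03 with no filter, 0.17 with the replicate block, 0.12 and 0.14 without the 3 or all 16 libraries with high opposite-strand counts, and 0.01 to 0.02 without replicate 3 or 2 (-0.14 to 0.02 over the replicates left out). With library totals HSFA2 turned to 0.84, HSFB2A to 0.66, SPT16 to 0.41, AT4G21870 to 0.20, emb1796 to 0.46 and DREB2A to 1.21 (0.35 with size factors and the Wald test). PHYB turned to 0.46 (size factors and Wald), 1.31 (library totals), 0.05 (no filter), 0.00 (only the groups compared), 0.04 (replicate block), 0.07 (without replicate 1) and 0.05 (without replicate 5; -0.13 to 0.07 over the replicates left out). The temperature interaction of PUM9 turned to -1.07 without the 16 libraries. Each gene value was counted once under each alternative. For 116 genes between fractions, 1785 such cases kept direction and side of the threshold, 27 lost a call, 24 gained one and 16 changed sign. For 27 interaction values, 380 cases kept both, 8 lost a call, 0 gained one and 1 changed sign.

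The longest minus shortest length class was 2.14 over genes that overlap no other and 2.67 over genes of at least 10 CPM in a fraction, a choice that also moved the intronless value to -0.75 and the exon value to 1.61. A prior count of 0.5 moved the hydrophobic value to 1.1. Without each replicate these 4 values were 1.94 to 2.02, -0.33 to -0.25, 1.1 to 1.2 and 0.88 to 0.96. Beyond the shift that a scaling makes by construction, the cause of these changes was not tested.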
